A study of Mus musculus with 4 samples.

Results

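The proteasome is the barrel-shaped protease that degrades ubiquitin-tagged proteins. Its genes were compared between small intestinal crypts of mice and organoids grown from the same crypts. Members were all genes whose name on the array began with Psma to Psmg followed by a digit, which gave 49 of 28632 gene names, carried by 77 of 41174 probes. Of these, 5 encode the parts that turn a standard proteasome into an immunoproteasome or cap it for antigen processing (Psmb8, Psmb9, Psmb10, Psme1 and Psme2), and the other 44 served as the comparison. The name rule also took in Psmc3ip, which encodes a meiotic recombination cofactor and no proteasome subunit.

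Crypts, the pits of the epithelium where its stem cells reside, were freed from the small intestine of 2 mice with EDTA. One portion gave crypt RNA at once, and the other was cultured for 1 week in Matrigel with EGF, R-spondin and Noggin before its RNA was taken as organoid RNA. Crypt and organoid RNA of a mouse were hybridised together to a whole-genome Agilent array, then to another with the Cy3 and Cy5 dyes exchanged, which gave 4 arrays. Neither tissue carried a named mutation or transgene, and the strain and age of the mice were not given in the labels used here. Crypts sit in a tissue with immune and stromal cells, so marker genes of those cells are given below beside the results. Crypt and organoid portions differ in time, medium and surroundings together, and these cannot be told apart. The pair of arrays of a mouse repeats the same RNA pair, so values are means of its arrays and n = 2 mice throughout.

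On each array, 53.7% to 67.2% of probes gave a crypt signal well above background and 51.5% to 61.7% an organoid signal. All changes are log2 ratios, organoid over crypt (negative when lower in organoids) with the SD of the 2 mice. Limma's moderated test was run on 15538 genes with Benjamini-Hochberg adjustment, and a gene is said to have fallen or risen where the adjusted p was under 0.05. By that rule 5.49% of all genes fell and 5.43% rose. In bulk RNA, fewer cells of a type and less RNA per cell cannot be told apart.

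The core of the proteasome, the 20S barrel, stacks outer rings of alpha subunits on inner rings of beta subunits. Of the beta subunits, Psmb5, Psmb6 and Psmb7 encode the constitutive catalytic ones (chymotrypsin-like, caspase-like and trypsin-like). Interferon-gamma is known to induce Psmb8, Psmb9 and Psmb10, whose products replace those of Psmb5, Psmb6 and Psmb7 in newly assembled barrels and favour peptides that fit MHC class I molecules. Psme1 and Psme2 encode PA28 alpha and beta, an interferon-inducible cap that opens the barrel without using ATP. The 19S cap, made of Psmc ATPases and Psmd subunits, binds and unfolds ubiquitin-tagged proteins.

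Regulatory letters near the starts of these genes are shown because the 5 genes share a known inducer and because Psmb9 lies head to head with Tap1, the peptide transporter gene, in the MHC region. Promoter sequences were those of RefSeq on GRCm38.p6, from 250 bases before to 50 bases after a start, with 44 windows for 41 of the 49 members. The sequence of 225 bases at chr17:34187331-34187555 (plus strand of the chromosome) fills the whole gap between the starts of Psmb9, read leftward, and Tap1, read rightward. For Psmb8 the 69 bases at chr17:34198068-34198136 (plus strand) surround a match to TTCNNNGAA, the core of the gamma-interferon activated site, in capitals. For Psme1 the 30 bases at chr14:55578493-55578522 (plus strand) surround a match to GAAANNGAAA, the core of the interferon-stimulated response element, read on the opposite strand, in capitals. For Psmb5, shown as the constitutive counterpart of Psmb8, the 69 bases at chr14:54618004-54618072 (minus strand) surround a match to TGACNNNGC, the core of the antioxidant response element bound by the NRF factors, in capitals.
Psmb9-Tap1: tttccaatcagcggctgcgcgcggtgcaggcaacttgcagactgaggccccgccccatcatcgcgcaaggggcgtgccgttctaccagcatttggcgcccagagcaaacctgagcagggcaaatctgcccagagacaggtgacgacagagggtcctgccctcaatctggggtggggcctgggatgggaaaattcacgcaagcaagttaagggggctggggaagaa
Psmb8: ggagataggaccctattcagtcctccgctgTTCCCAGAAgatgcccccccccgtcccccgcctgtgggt
Psme1: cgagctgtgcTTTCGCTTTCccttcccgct
Psmb5: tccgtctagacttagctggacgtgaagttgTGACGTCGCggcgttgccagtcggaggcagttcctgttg

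Both strands of each window were searched for these letters, and matches of different motifs could overlap. GAAANNGAAA occurred in 3.44% of all 32851 windows and in 5 of the 44 windows of members (Psmb3, Psmd4, Psmd9, Psme1 and Psmg4). TTCNNNGAA occurred in 8.3% of all windows and in 3 of the 44 (Psmb8, Psmd2 and Psmg1). TGACNNNGC occurred in 12.4% of all windows and in 6 of the 44 (Psmb5, Psmb6, Psmc6, Psmd12, Psmd9 and Psme4). Among the 5 immunoproteasome and PA28 genes, Psmb8 held TTCNNNGAA with its first letter 97 bases before the start, and Psme1 held GAAANNGAAA beginning 10 bases into the transcript. None of the 3 sets of letters was found in the windows of Psmb9, Psmb10 and Psme2, which says only that these letters were not in these windows.

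All 5 immunoproteasome and PA28 genes fell in organoids, and none of the other 42 members that could be tested rose or fell. Over all genes tested, 5.49% fell and 5.43% rose. The 5 spanned from -3.31 for Psmb8 to -1.21 for Psme1 on the log2 scale, with a median of -1.96 (mouse 1: -2.09, mouse 2: -1.83). The other 42 spanned from -0.58 for Psma4 to 0.41 for Psmd5, with a median of -0.07 (mouse 1: -0.03, mouse 2: -0.11), beside a median of 0.02 over all genes tested. The difference between both medians was -2.05 in mouse 1 and -1.72 in mouse 2, mean -1.89. All 47 tested members were well above background in all 8 channels, so no member entered the test through 1 tissue alone. With 2 mice, an exact two-sided test of such a difference cannot go below p = 0.5.

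Psmb8, which encodes the chymotrypsin-like immunoproteasome subunit, had the lowest value of the family (probe at mm9 chr17:34337771-34337830). In mouse 1 its log2 ratio was -3.47 with the organoid in Cy5 and -3.36 with the organoid in Cy3, and in mouse 2 it was -3.17 and -3.23 in the same order. Its normalized log2 intensity was between 13.80 and 14.30 in the crypt channels and between 10.51 and 10.83 in the organoid channels, so the tissues lay far apart on every array. The mean was -3.31 ± 0.15 (SD, n = 2), which is 9.92-fold lower in organoids (limma adjusted p = 0.00131) and rank 14 from the lowest of 15538 genes. The other Psmb8 probe gave -3.68, -3.55, -3.34 and -3.43 in the same array order.

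Psmb9, the caspase-like position of the immunoproteasome, followed (probe at mm9 chr17:34319174-34319233). Its ratios were -2.88 and -2.86 in mouse 1 and -2.60 and -2.74 in mouse 2, organoid in Cy5 first. Crypt intensities lay between 13.81 and 14.08 and organoid intensities between 11.06 and 11.30, again without overlap. The mean of -2.77 ± 0.14 (n = 2) is 6.82-fold lower in organoids (limma adjusted p = 0.00159, rank 38 from the lowest).

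Psmb10, the trypsin-like immunoproteasome subunit (probe at mm9 chr8:108459677-108459736), had -2.06 and -2.11 in mouse 1 and -1.70 and -1.95 in mouse 2. Its crypt channels read 15.47 to 15.87 and its organoid channels 13.36 to 13.89. The mean of -1.96 ± 0.18 (n = 2) is 3.88-fold lower in organoids (limma adjusted p = 0.00339, rank 120). All 4 arrays were lower in the organoid for each of these 3 catalytic genes.

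The PA28 cap genes fell less far, in the same direction on all 4 arrays. Psme2, PA28 beta (probe at mm9 chr14:56206335-56206394), had -1.30 and -1.84 in mouse 1 and -1.50 and -1.93 in mouse 2, so its values followed the dye orientation more than the mouse. Its mean was -1.64 ± 0.10 (n = 2), 3.13-fold lower (limma adjusted p = 0.00413), and its other probe gave -1.20, -1.77, -1.41 and -1.62. RefSeq lists a copy of this gene, Psme2b, and the array does not tell how far both share signal. Psme1, PA28 alpha (probe at mm9 chr14:56200194-56200253), had the tightest values of the 5, with -1.26 and -1.21 in mouse 1 and -1.17 and -1.20 in mouse 2. Its mean was -1.21 ± 0.03 (n = 2), 2.31-fold lower (limma adjusted p = 0.00807).

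**Figure D1:**
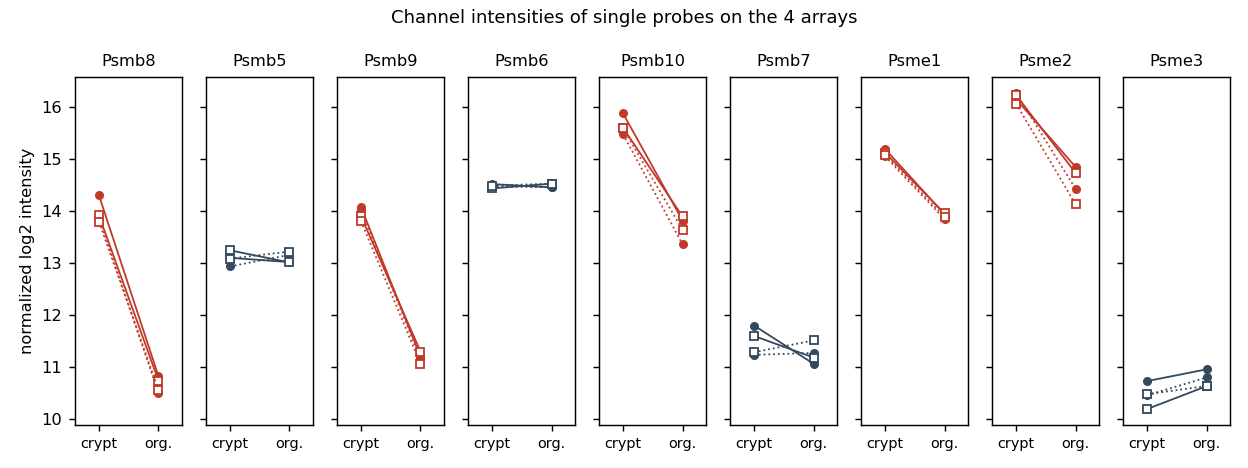
Normalized log2 intensity of a single probe per gene in the crypt and the organoid channel of each array. Red marks the 5 immunoproteasome and PA28 genes, and dark the constitutive counterparts Psmb5, Psmb6 and Psmb7 and the related cap gene Psme3. Lines join the channels of an array, filled circles are mouse 1, open squares mouse 2, solid lines have the organoid in Cy5 and dotted lines in Cy3. Psmb8 drops from 13.80 to 14.30 in crypts to 10.51 to 10.83 in organoids, whereas Psmb6 stays between 14.43 and 14.52 in all channels, and heights are not comparable between genes because probes differ.

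The constitutive catalytic genes showed no such fall. Psmb5, the counterpart of Psmb8, had -0.08 and 0.22 in mouse 1 and -0.23 and 0.13 in mouse 2, mean 0.01 ± 0.08 (n = 2, limma adjusted p = 0.974). Psmb6, the counterpart of Psmb9, had -0.06, -0.02, 0.09 and 0.04 over the same arrays, mean 0.01 ± 0.07 (limma adjusted p = 0.973). Psmb7, the counterpart of Psmb10, had -0.73 and 0.04 in mouse 1 and -0.41 and 0.23 in mouse 2, mean -0.22 ± 0.18 (limma adjusted p = 0.381). Its sign followed the dye, negative on both arrays with the organoid in Cy5 and positive on both with the organoid in Cy3.

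Set against its own counterpart within each mouse, each inducible gene was lower by more than the spread between mice. Psmb8 minus Psmb5 was -3.49 in mouse 1 and -3.15 in mouse 2, mean -3.32 ± 0.24, a 9.99-fold shift between the pair of genes. Psmb9 minus Psmb6 was -2.83 and -2.74, mean -2.78 ± 0.07, a 6.87-fold shift. Psmb10 minus Psmb7 was -1.74 and -1.73, although the single arrays ran from -1.29 to -2.17 with the dye of Psmb7. These are differences of log2 ratios and carry no test beyond their 2 values.

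The PA28 gamma gene Psme3, whose product forms a nuclear cap related to PA28 alpha and beta, was positive on all 4 arrays (0.23, 0.34, 0.44 and 0.16) but did not pass, at 0.29 ± 0.01 (limma adjusted p = 0.223). Against it, Psme1 was at -1.50 ± 0.02 and Psme2 at -1.94 ± 0.11. Psme4, which encodes the PA200 cap, was at 0.02 ± 0.16, and Psmf1, the proteasome inhibitor PI31, at -0.07 ± 0.02. Neither passed the test.

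**Figure D2:**
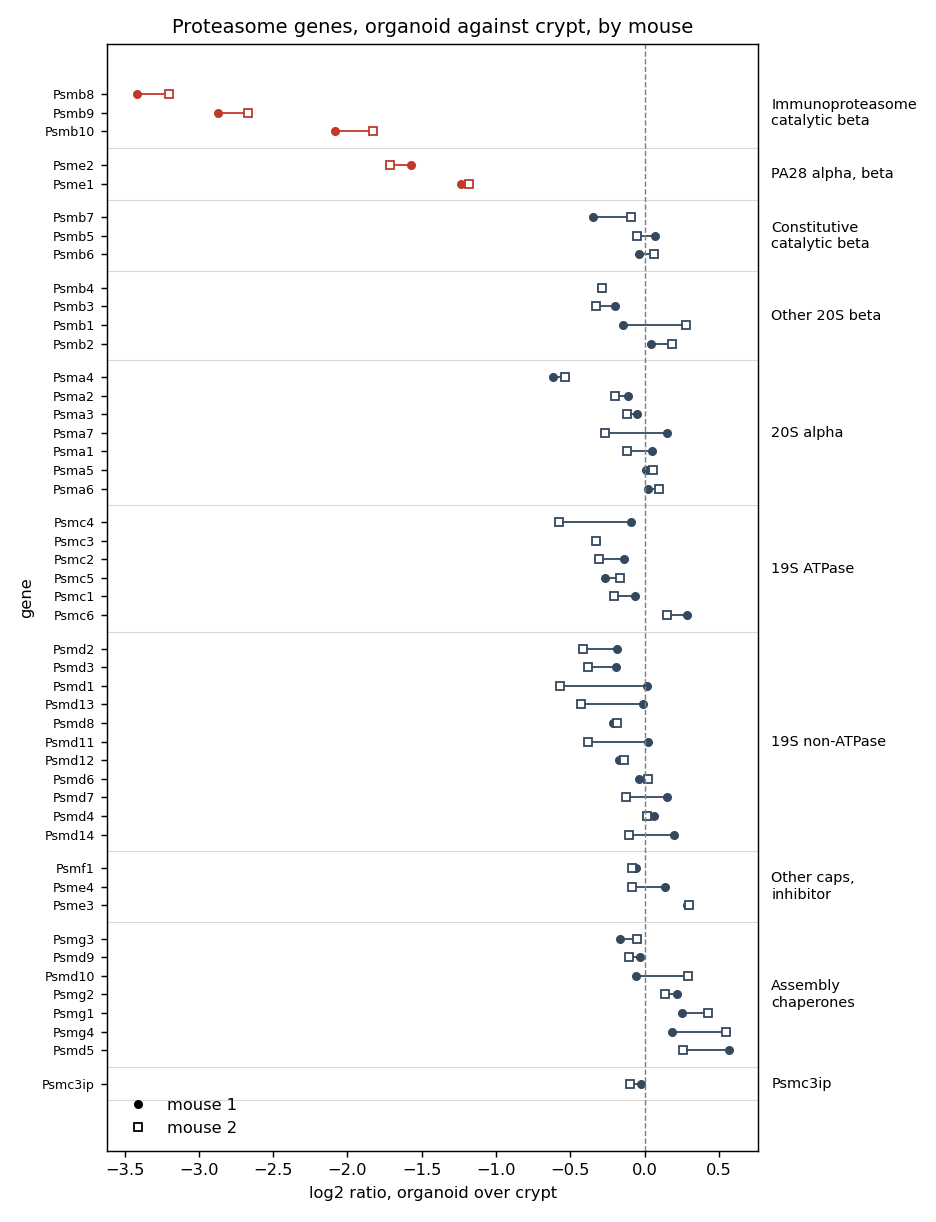
Log2 ratio of organoid over crypt (horizontal axis) of the 47 tested members, grouped by their place in the proteasome. Filled circles are the mean of both arrays of mouse 1, open squares of mouse 2, and a line joins them. The 5 red genes lie between -3.42 and -1.18 in either mouse, and the dark genes between -0.61 and 0.57.

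The rest of the 20S barrel lay close to no change. The 7 alpha subunit genes had a median of -0.06, from Psma4 at -0.58 ± 0.05 to Psma6 at 0.06 ± 0.05. Psma4 was negative on all 4 arrays (-0.66, -0.57, -0.66 and -0.42) and missed the threshold narrowly (limma adjusted p = 0.0537). It passed without background subtraction (adjusted p = 0.0431), with the organoid in Cy5 alone (adjusted p = 0.049) and with 4 arrays as units (adjusted p = 0.0103), and over all alternatives its value lay between -0.29 and -0.66. The 4 remaining beta genes had a median of -0.10, from Psmb4 at -0.29 ± 0.005 to Psmb2 at 0.11 ± 0.10.

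In the 19S cap, the 6 ATPase genes had a median of -0.22, from Psmc4 at -0.33 ± 0.34 to Psmc6 at 0.22 ± 0.10. Each of the 6 had the same sign in both mice, and none passed the test. The 11 other cap genes had a median of -0.18, from Psmd2 at -0.30 ± 0.16, a large scaffold subunit, to Psmd14 at 0.05 ± 0.22, the deubiquitinase of the cap. Only 6 of these 11 had the same sign in both mice. Psmd1, also a scaffold subunit, had 0.02 and 0.02 in mouse 1 and -1.01 and -0.13 in mouse 2, so a single array set its mean of -0.28 ± 0.42, which was -0.05 without that array.

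The 7 assembly chaperone genes, whose products help build the barrel or the cap, had a median of 0.18. Psmd5 was highest, with 0.60 and 0.53 in mouse 1 and 0.41 and 0.11 in mouse 2, mean 0.41 ± 0.22 (limma adjusted p = 0.144). Psmg1, a barrel assembly chaperone, was at 0.34 ± 0.12 (limma adjusted p = 0.18), and Psmg3 was lowest at -0.11 ± 0.08. Psmc3ip was at -0.06 ± 0.06. Psma8, a testis alpha subunit, and Psmb11, a thymus beta subunit, were not tested. The Psma8 probe was well above background in 2 crypt channels and 1 organoid channel, and the 2 Psmb11 probes in at most 1 channel.

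Counted over the 42 other members, 37 stayed within 0.5 log2 units of 0 in both mice, and 30 (71.4%) had the same sign in both mice, beside 68.8% of all genes tested. Of the 42, 4 had an unadjusted p under 0.05 (Psma4, Psmc3, Psmd5 and Psmg1), beside 27.6% of all genes. When the 4 arrays were fitted as units with a dye effect, which treats repeats of the same RNA as separate samples, the same 4 passed the adjusted threshold, beside 23.9% of all genes. Both shares lay below those of all genes.

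On no array did a gene of the 5 reach the range of the other 42 on their representative probes. The gap between Psme1, the highest of the 5, and the lowest other member was 0.52 and 0.64 in mouse 1 and 0.15 and 0.78 in mouse 2, organoid in Cy5 first. The narrow gap came from Psmd1 at -1.01. Among probes of lower intensity, a second Psmd7 probe was at -1.10 and -1.34 in mouse 2, the latter below Psme1 on that array (-1.20). Its mean in mouse 2 (-1.22) was also below that of Psme1 (-1.18), but in mouse 1 it was at 0.17 and 0.07. A second Psmd4 probe was at -1.12 and -0.72 in mouse 2 and stayed above Psme1. These 2 genes had the widest spread between probes, 0.56 and 0.40 in mean log2 ratio.

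**Figure D3:**
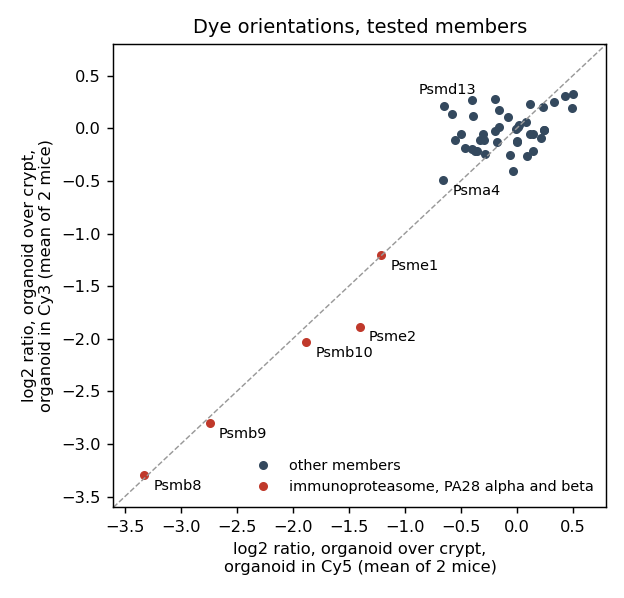
Mean log2 ratio of organoid over crypt over the 2 mice with the organoid in Cy5 (horizontal axis) and in Cy3 (vertical axis) for the 47 tested members, with the line of equality dashed. The 5 red genes lie between -3.32 and -1.21 with the organoid in Cy5, near the line except Psme2 (-1.40 and -1.89), and among the dark genes Psmd13 differs most between the orientations (-0.65 and 0.21).

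Both dye orientations gave the fall of the 5 genes. With the organoid in Cy5 and in Cy3, Psmb8 was at -3.32 and -3.30 and Psme1 at -1.21 and -1.21. Psme2 differed by 0.49 between orientations, the most of the 5. Among other members, Psmd13 (-0.86), Psmb7 (-0.71) and Psmf1 (-0.67) had the largest difference, Cy5 minus Cy3, which exceeded their mean ratios. These 3 genes were picked out after their values were seen.

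Genes that act with the proteasome on ubiquitin-tagged proteins were set beside the 5. Of 25 such partners (ubiquitin genes, receptors, deubiquitinases, assembly and recovery factors), all 25 were tested. None passed limma's adjusted threshold, beside 5.49% of all genes that fell and 5.43% that rose. In a list of 25 a count of 0 lies near those shares. At an unadjusted p under 0.05 were 3, beside 27.6% of all genes. With 4 arrays as units 2 passed, beside 23.9% of all genes. Their median was 0.02. Pomp, the maturation factor of the barrel, was lowest at -0.52 ± 0.08 and negative on all 4 arrays. It missed the threshold (limma adjusted p = 0.0709) but passed with 4 arrays as units (limma adjusted p = 0.017). The shuttle factor gene Ubqln2 was highest at 0.42 ± 0.01. Nfe2l1, which encodes the transcription factor that restores proteasome gene expression when proteasomes fail, was at 0.15 ± 0.16 (adjusted p = 0.56).

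Most of the listed genes that carry and load peptides onto MHC class I fell. Of 11 in the list, 10 fell and 0 rose (median -1.38), beside 5.49% and 5.43% of all genes. B2m, the class I light chain, was at -2.10 ± 0.18, or -1.89 as a mean over its probes. The chaperone gene Canx, the exception, was at -0.04 ± 0.03. Tap2, a transporter subunit, was at -1.64 ± 0.04 but differed between dyes. It had -2.18 and -1.04 in mouse 1 and -1.86 and -1.47 in mouse 2, organoid in Cy5 first. Tap1, which shares the printed 225 bases with Psmb9, had -2.09 and -0.85 in mouse 1 and -2.04 and -1.43 in mouse 2, mean -1.60 ± 0.19 (limma adjusted p = 0.00498). It was therefore lower in organoids on all 4 arrays, as Psmb9 was, with a wider dye difference. With median centring of the arrays, 1 of the 11 genes passed, and Tap1 was at -1.44 (limma adjusted p = 0.105). That setting called only 223 of all 15538 genes (93 lower), against 1697 (853 lower) in the fit reported. The class I heavy chain genes H2-K1 and H2-D1, at -0.79 and -1.44, are closely related genes whose probes may share signal.

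Of 15 genes of interferon signalling, 14 were tested and 5 of them fell (median -0.51), beside 5.49% of all genes. Irf1, the interferon-induced transcription factor, had -2.54 and -2.54 in mouse 1 and -2.65 and -2.82 in mouse 2, mean -2.64 ± 0.14 (limma adjusted p = 0.00167). As a mean over its probes Irf1 was at -2.20 and still passed (limma adjusted p = 0.00279). Irf7 was at -1.97 ± 0.41 and did not pass with the organoid in Cy3 alone (adjusted p = 0.0808). Irf9 was at -1.43 ± 0.47, or -0.95 as a mean over its probes, and did not pass without the filter on dim probes (adjusted p = 0.077). The receptor gene Ifngr1 was positive on all 4 arrays at 0.67 ± 0.28 without passing (limma adjusted p = 0.057). With the organoid in Cy5 alone it passed (adjusted p = 0.0274), at 0.80. With median centring, which called 223 of all 15538 genes, 1 of the 14 passed. Nlrc5, a class I transactivator, was not tested.

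**Figure D4:**
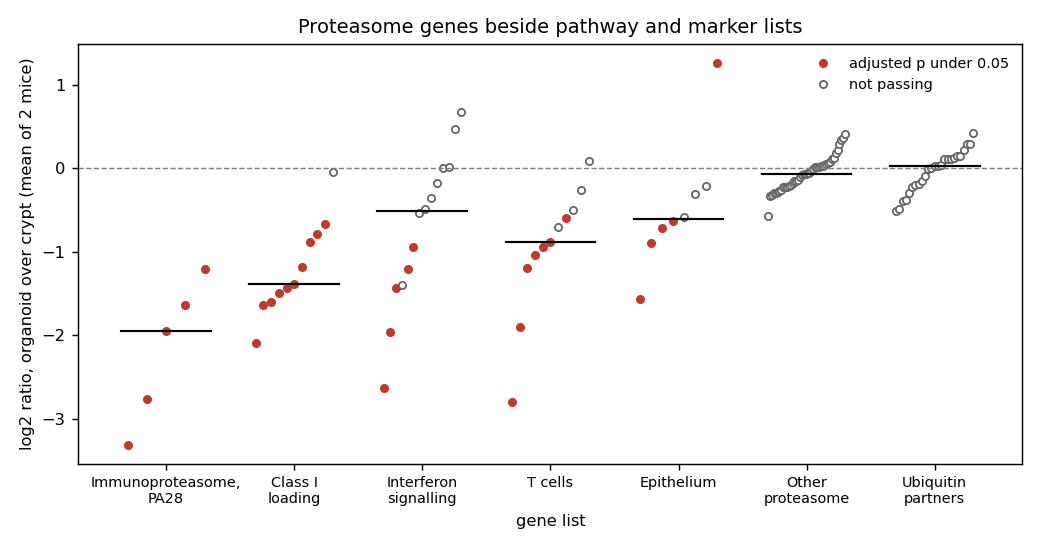
Mean log2 ratio of organoid over crypt (vertical axis) of each tested gene in 7 lists, with the list's median as a bar and genes past an adjusted p of 0.05 filled red. The immunoproteasome and PA28 genes have a median of -1.96 and class I loading genes of -1.38, while other proteasome genes and ubiquitin partners have medians of -0.07 and 0.02.

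Some markers of T cells, which lie between the cells of the crypt and villus epithelium, were also lower in organoids. Of 14 such markers 11 were tested and 7 fell, beside 5.49% of all genes. Of those 7, 5 were well above background in fewer than 4 organoid channels and entered the test through the crypt, so their fall is partly set by the filter. The granzyme genes Gzma and Gzmb, above background in 1 and 3 of the 4 organoid channels, were at -2.80 and -1.90, but at -5.75 and -3.80 by the scanner software's ratio. Cd7, above background in all channels, was at -1.20 ± 0.10, or -2.38 by the scanner software's ratio, whereas Cd3e was at 0.08 ± 0.19. Cd7 was at -1.70 with the organoid in Cy5 alone and at -0.69 in Cy3 alone, where it did not pass (limma adjusted p = 0.0924). With median centring 2 of the 11 passed, and with the organoid in Cy3 alone 1 did. Those settings called 223 and 908 of all 15538 genes, against 1697 in the fit reported. The summed log2 intensity of the list was 11.98 to 12.63 in crypt channels and 10.96 to 11.44 in organoid channels. Cd3d and Cd3g were well above background in all 4 crypt channels and in 0 organoid channels, yet Cd3d still read 7.04 to 7.49 in the latter. The sums therefore hold background signal and do not measure T cell RNA left in organoids. The 5 genes were well above background in every organoid channel, which does not show from which cells their crypt signal came. The part of T cells in the result of the 5 genes was not tested.

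Of 9 myeloid markers 7 were tested and 1 fell, Lyz2, whose near-identical copy Lyz1 is a Paneth cell gene. Lyz2 was at -2.32 ± 0.18, or at -1.45 as a mean over its probes. The summed log2 intensity was 15.78 to 16.23 in crypts and 13.44 to 14.12 in organoids with Lyz2, and 10.84 to 11.28 and 10.76 to 10.98 over the other 6. Such sums also hold background signal, since Itgam, well above background in 0 organoid channels, still read 7.15 to 7.47 there. Adgre1, a macrophage marker, was above background in no channel. Of 7 B cell markers 5 were tested and 1 fell (Jchain), with sums of 10.56 to 10.71 in crypts and 10.46 to 11.09 in organoids. Jchain was well above background in 0 organoid channels, and its call was lost with median centring, without the filter on dim probes and with the organoid in Cy3 alone. Of 10 stromal and vessel markers 3 were tested and 1 fell (Acta2, -0.66), with sums of 13.00 to 13.43 and 12.56 to 12.80. The Acta2 call was lost in 6 of the 10 alternatives, among them the mean over its probes (-0.31, adjusted p = 0.197). Cdh5, Dcn, Des, Lum and Pecam1 were above background in no channel. Over all genes tested 5.49% fell, and a single call in lists of 7, 5 and 3 tested genes says little about these cells. The part of these cells was not tested either.

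The labelled epithelium was present in both tissues, with all 8 epithelial markers well above background in all 8 channels. Their level was not equal, since 4 fell (Vil1 most, at -1.56 ± 0.13, then Krt8, Krt19 and Cldn7) and 1 rose (Krt18, at 1.26 ± 0.36). The shares over all genes were 5.49% and 5.43%. Epcam was at -0.59 ± 0.05 without passing. With median centring, which called 223 of all 15538 genes, 1 of the 8 passed. The median of the 8 was -0.61 and that of the 5 immunoproteasome and PA28 genes was -1.96. What part the share of epithelial cells had in either was not tested.

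The calls of the 5 genes depended on a single setting. With median centring of each array in place of the intensity-dependent loess curve, Psmb8 and Psmb9 passed (2 of 5), while Psmb10 at -1.56 (adjusted p = 0.0678), Psme1 at -0.82 (adjusted p = 0.387) and Psme2 at -1.21 (adjusted p = 0.17) did not. That scaling called 223 of all 15538 genes (93 lower), against 1697 (853 lower) in the fit reported. It moved the median of all genes from 0.02 to 0.17. Relative to that median the 5 had a median of -1.72 and the others of 0.06. In the other 9 alternatives with a test all 5 passed, the one that leaves out the array with the Psmd1 value of -1.01 included.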

How the data were processed

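Per the labels and file headers, crypt and organoid RNA were labelled with Cy3 and Cy5 and hybridised to 4 two-colour arrays, read with Agilent Feature Extraction 10.2.1.3 per the file headers, and 9.5.3 per the submitters' processing notes. The deposited linear intensity columns used were the mean signal of a spot and its median local background in both dyes. A log10 ratio (Cy5 over Cy3) computed and dye-normalized by the scanner software is also deposited, per the file headers. The authors' deposited matrix holds log2 ratios of Cy5 over Cy3 (r from 0.978 to 0.991 with the scanner ratio, column medians 0), and the sources used here do not give its centring.

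Limma 3.58.1 in R 4.3.3 was used: normexp (offset 50), loess within arrays with controls at weight 0, spots with an outlier mark left out, spots of a probe averaged. The 21923 probes tested had no mark on any array and, in at least 1 tissue, a signal well above background in every channel. Probes were named by accession through RefSeq (24844 of 41174) or by the files. The brightest tested probe stood for a gene. The dye labels set the sign of each ratio (organoid over crypt). Means per mouse went into lmFit and eBayes against 0 (two-sided test, 1 residual and 4.16 prior degrees of freedom, Benjamini-Hochberg over 15538 genes). The moderated test was run on simulated mouse means with known changes, and the averaging of swapped arrays was checked on made-up values. Background correction, loess, the filters and the choice of probe were not simulated. The number of mice limits the precision, and nothing states whether labelling was repeated between the arrays of a mouse.

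Members and lists were chosen with earlier results of these data known. Genes named were the 5, Psmb5 to Psmb7, the highest and lowest of each class, the 3 called genes of largest change in each list, and Tap1, Irf1 and Nfe2l1. A further gene of this rule is not reported here. Other names were chosen after their values were seen. Alternatives were the scanner's ratio, the deposited matrix, median centring, no background subtraction, no filter on dim probes, the mean over probes, each dye orientation alone, 4 arrays with a dye effect, each mouse alone and, added after seeing the data, leaving out 1 array of mouse 2.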

Additional observations from a re-analysis of the deposited data

Results flagged for a closer look

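Among the 4 arrays of each of the 47 tested members, 2 values stood apart from the other 3 by Dixon's criterion. Chance alone meets it in about 1 of 20 groups, so 2 among 47 groups is near that rate. Both values were on the array of mouse 2 with the organoid in Cy5. Psmd1, a scaffold subunit of the 19S cap, was at -1.01 there (gap 0.856 of the range), against -0.13 to 0.02 on the other arrays. Psmg2, a barrel assembly chaperone, was at 0.0278 there (gap 0.875 of the range), against 0.22 to 0.24 on the other arrays. Neither gene passed the test with or without this array, and without it the 5 immunoproteasome and PA28 genes all passed.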

How the results depend on the processing

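All 5 immunoproteasome and PA28 genes passed in 10 of 11 fits with a test, and their median minus that of all genes lay between -2.05 and -1.72. With median centring only, members called numbered 2, all from the 5, the median of the 5 was -1.56 and of the other members 0.22, and 6 genes of the 8 lists passed. With the organoid in Cy3 only, 17 list genes passed. Over all 15538 genes, 223 passed with median centring, 908 with the organoid in Cy3 only and 1697 in the fit reported. With 4 arrays and a dye effect 9 members passed, 4 of them among the others. No background subtraction and the organoid in Cy5 only each called 1 other member, Psma4. Each mouse alone gave medians of -2.09 and -1.83 for the 5 and -0.03 and -0.11 for the others. Among all 47 tested members the sign turned for 20 with median centring, 10 with the organoid in Cy3 only, 7 with the organoid in Cy5 only and 7 without the mouse 2 array, and for 0 of the 5 in any of these. Among the 45 genes recomputed one by one, only genes that had not passed turned. With each mouse alone these included Psmb5 (-0.0496 in mouse 2) and Psmb6 (-0.0409 in mouse 1). With the organoid in Cy3 only they were Psma6 (-0.10), Psmb2 (-0.019), Psmd14 (-0.0523), Psmf1 (0.27), Psmd13 (0.21) and Psmb7 (0.13). With the organoid in Cy5 only these were Psmb5 (-0.16), Psmc3ip (0.0036) and Canx (0.0295). Psmb6 turned with the scanner's ratio (-0.0259) and the deposited matrix (-0.0038). Median centring turned Psmb4 (0.0932), Psmb7 (0.0246), Psmc3ip (0.13), Psmd2 (0.0082), Psmf1 (0.11), Psmg3 (0.18) and Canx (0.36). Without the mouse 2 array with the organoid in Cy5, which was added after seeing the data, Psma6 (-0.0251), Psmb6 (-0.0029), Psmd13 (0.0377) and Psmf1 (0.13) turned. The cause was not tested. Each ratio sets both tissues of a mouse against each other, so the test is paired by mouse as it stands and no further replicate block applies. Signal over background did not limit the 47 tested members, whereas Psma8 and Psmb11 could not be measured.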
